A study of Homo sapiens with 6 samples.

Results

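The kinases described here phosphorylate SR proteins and other splicing factors. Their 9 genes, CLK1, CLK2, CLK3, CLK4, SRPK1, SRPK2, DYRK1A, DYRK1B and PRPF4B, were read in 4 peak lists of SON and HMGB2 in IMR90 cells, human embryonic lung fibroblasts. The members were chosen by name, with earlier results of these data known. They are 9 of 19974 protein-coding genes of chromosomes 1 to 22 and X. A peak was assigned to a gene when at least 1 bp of it lay in the RefSeq span of the gene or within 5 kb of either end, which gave 28 assignments of peaks in all: 14 in the untreated SON list, 8 after 3 days of ICM, 3 after 6 days of ICM and 3 in the HMGB2 list. The labels do not expand ICM.

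SON, a large protein of nuclear speckles, was profiled by ChIPmentation in cells fixed with 1% formaldehyde for 10 min. The cells were untreated, or treated with ICM for 3 days or for 6 days. HMGB2, a chromatin protein with HMG boxes that bend DNA, was profiled in untreated cells fixed first with 1.5 mM EGS for 20 min, a crosslinker of longer reach between proteins, and then with formaldehyde, so that the target and the fixation cannot be told apart. The series asked how both proteins relate to CTCF, genome folding and expression, and its title names the splicing programme of senescent cells. Each group has 1 list, so no difference between conditions has a replicate check and none was tested.

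SR proteins carry a domain rich in arginine and serine, and its phosphorylation sets where they are in the cell and whether they take part in splicing. SRPK kinases act largely in the cytoplasm and prime SR proteins for import by transportin-SR, while CLK kinases act in the nucleus and release SR proteins from nuclear speckles. DYRK1A and DYRK1B are related dual-specificity kinases that can locate to the nucleus, and PRPF4B (PRP4K in the gene table, matched by its synonym) phosphorylates proteins of the U4/U6.U5 tri-snRNP. Nuclear speckles store splicing factors, and active genes often lie close to them.

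The 3 SON lists held 22362, 11158 and 5583 lines, in the order untreated, 3 days and 6 days, and the HMGB2 list held 6013. Strength is given as the −log10 p of the authors' peak caller, for SON the lower of the values of 2 replicates, and as the share of lines in the same list with a lower value. For SON the global irreproducible discovery rate (IDR) is given too, a measure of how well a peak's rank is repeated between 2 replicates, with low values for well repeated peaks. Its largest values were 0.431, 0.447 and 0.63, so the lists were not restricted to well repeated peaks. The lists give no read counts, so the depth is unknown, and a gene without a line is one at which no peak was listed, not one shown to be unbound. As a check of the cell type, 6 of 8 fibroblast genes, all but VIM and S100A4, carried an untreated SON peak, against 1 of 5 epithelial genes, 1 of 3 blood genes and 2 of 3 endothelial genes. By the same rule 57.1% of all protein-coding genes carried one. Peaks do not measure expression, and the counts of these markers are too small to set the cell type.

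Every one of the 9 kinase genes had an untreated SON peak (95% exact Clopper-Pearson interval 66.4 to 100%), and 7 had one at 3 days (77.8%, 39.99 to 97.2%). These were CLK2, CLK3, CLK4, SRPK1, DYRK1A, DYRK1B and PRPF4B. At 6 days 2 of 9 had one (22.2%, 2.81 to 60.0%), CLK2 and DYRK1B, and 2 of 9 had an HMGB2 peak, CLK2 and PRPF4B. Of all protein-coding genes, 57.1% had an untreated SON peak by the same rule, 41% a 3-day peak, 21.5% a 6-day peak and 23.3% an HMGB2 peak. The counts of kinase genes at 6 days and for HMGB2 are thus at the background. The untreated and 3-day counts are above it, although the lower end of the 3-day interval lies just under its background share. The SON counts include CLK2, whose SON peaks lay at the starts of its neighbours SCAMP3 and HCN3. The intervals cover counting error over genes only. They do not cover the choice of members with earlier results known, so they are no test of the set.

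Gene length bears on such counts, since a longer span can meet more peaks. With all genes divided by length into fixed classes of nearly equal size, the share with an untreated SON peak ranged over the classes that hold a kinase gene from 48.5%, in the class with CLK2 (10.6 kb) and DYRK1B (8.81 kb), to 72.6%, in the class with SRPK2 (284.6 kb) and DYRK1A (160.8 kb). At 3 days these shares were 35.6% and 55.1%. Set against genes of the same class, the background of the untreated count thus reaches into the interval of the kinase genes for the longest members.

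By pattern over the SON lists, CLK3, CLK4, SRPK1, DYRK1A and PRPF4B were listed in untreated cells and at 3 days but not at 6 days, 5 of 9 genes against 19.8% of all genes. CLK2 and DYRK1B were listed in all 3, 2 of 9 against 20.3%. CLK1 and SRPK2 were listed in untreated cells only, 2 of 9 against 16.1%. The shortening of the lists from untreated cells to 6 days goes with these patterns. At 5583 lines per list, the length of the 6-day list, 7 of 9 genes kept an untreated SON peak, 5 a 3-day peak and 2 a 6-day peak. This cut keeps only the strongest lines of the longer lists but every line of the 6-day list. SRPK1 and SRPK2 then had no SON peak, and PRPF4B was listed in untreated cells only. The shares of all genes were not computed at this length, so these counts have no background to be read against. The cause of the patterns was not tested.

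**Figure D1:**
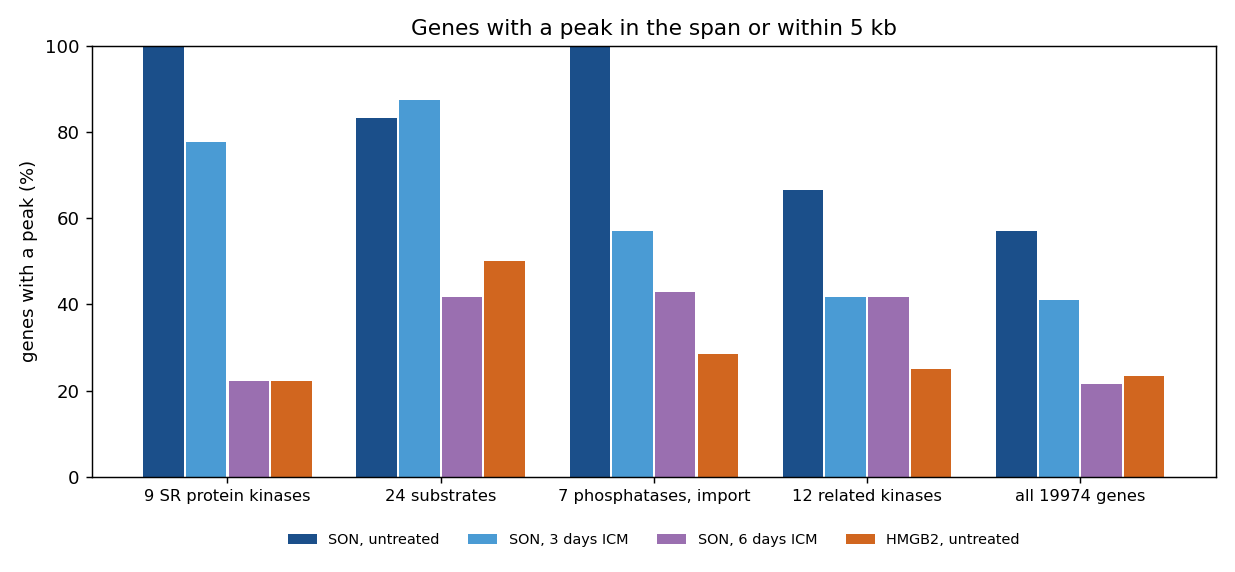
Percent of genes with a peak in the gene span or within 5 kb (vertical axis), by list (colour), for the 9 SR protein kinases, 24 of their substrates, 7 phosphatase and import genes, 12 related kinases and all 19974 protein-coding genes. The kinases stand at 100% in untreated SON and 77.8% at 3 days, and at 22.2% at 6 days and for HMGB2, where all genes stand at 21.5% and 23.3%.

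Position narrows the picture, because a window of 5 kb also holds neighbouring genes. Within 1 kb of an annotated start of the gene itself, an untreated SON peak was listed for 7 of 9 kinase genes (77.8%, 39.99 to 97.2%) against 43.8% of 15812 genes with an annotated start. At 3 days the count was 6 of 9 (66.7%, 29.9 to 92.5%) against 31%, at 6 days 1 of 9 (11.1%, 0.281 to 48.2%) against 12.9%, and for HMGB2 2 of 9 against 16.7%. A peak counted when any part of it lay within 1 kb. The 3-day peak of CLK3 counted by its edge, 787 bp from a start, while its midpoint was 1041 bp away. The 2 genes without an untreated SON peak at a start were CLK2 and SRPK2, and the 6-day gene was DYRK1B. For all 4 lists the background share lies within the interval of the kinase genes at their starts.

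**Figure D2:**
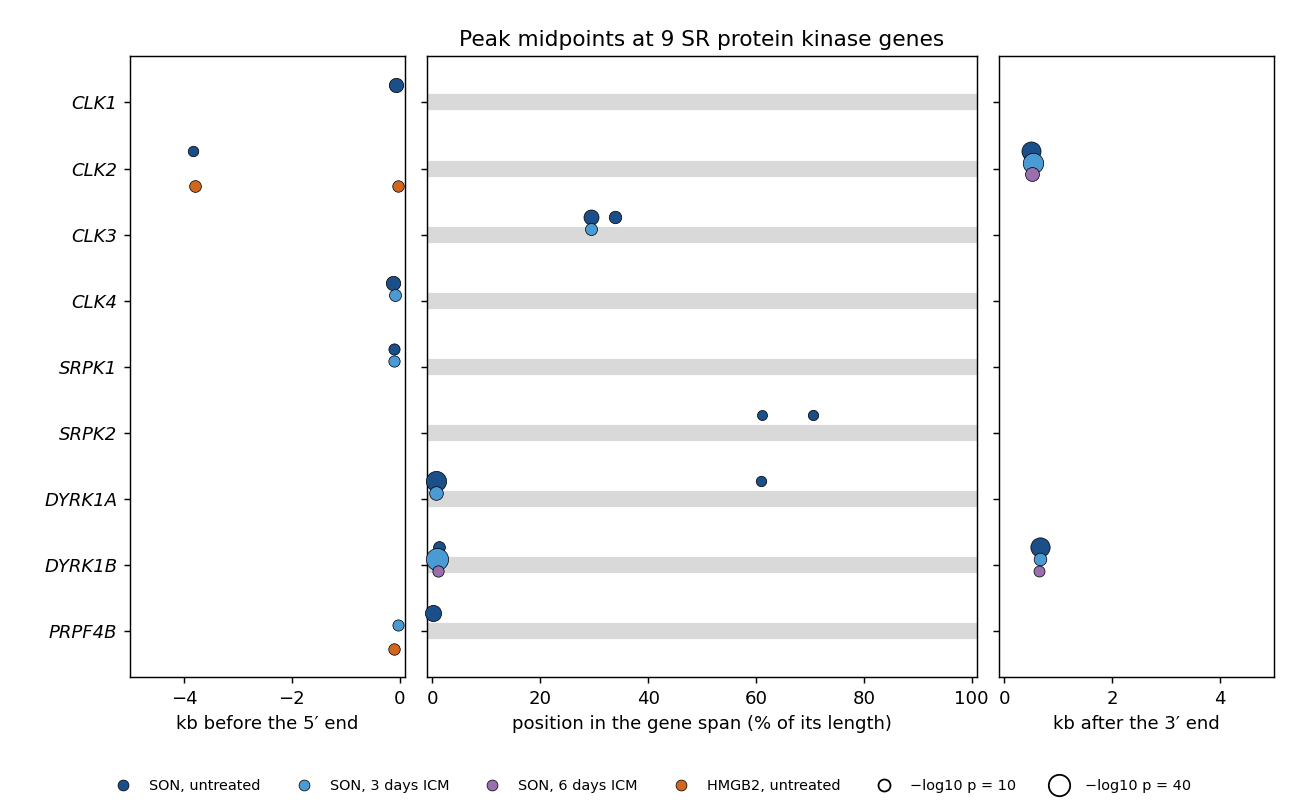
Midpoints of all peaks assigned to the 9 genes, drawn in kb before the 5′ end (left), in percent of the gene span (middle, grey bars) and in kb after the 3′ end (right), with colour for the list and point area rising with −log10 p. Many points crowd at the 5′ end, the CLK3 points lie about 30% into the span, those of SRPK2 lie deep in the gene, and the strongest CLK2 points lie beyond its 3′ end.

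The letters in front of the starts are shown for 5 genes that span the range of outcomes: DYRK1B, with a SON peak at the start in all 3 SON lists; CLK4, in 2 of them; CLK1, in untreated cells only; PRPF4B, with SON and HMGB2 peaks; and CLK2, with an HMGB2 peak but no SON peak at its start. Each line gives the 250 bases before the outermost start, 5′ to 3′ on the gene's strand, from RefSeq (GRCh38.p14). Capitals mark matches, on either strand, to CCAAT (the NF-Y box), GGGCGG (the SP box), CCGGAAG (ETS factors), TATAAA (the TATA box) and AGGNGGC (part of the CTCF motif). GGGCGG and AGGNGGC can share letters. They are DYRK1B, chr19:39834163-39834412, minus strand; CLK4, chr5:178627051-178627300, minus strand; CLK1, chr2:200864659-200864908, minus strand; PRPF4B, chr6:4021050-4021299, plus strand; and CLK2, chr1:155273505-155273754, minus strand.
DYRK1B: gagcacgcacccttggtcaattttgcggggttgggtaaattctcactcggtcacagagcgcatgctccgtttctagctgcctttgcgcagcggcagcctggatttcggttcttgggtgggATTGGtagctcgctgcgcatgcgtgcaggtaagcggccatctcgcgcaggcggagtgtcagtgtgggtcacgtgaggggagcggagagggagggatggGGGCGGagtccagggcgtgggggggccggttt
CLK4: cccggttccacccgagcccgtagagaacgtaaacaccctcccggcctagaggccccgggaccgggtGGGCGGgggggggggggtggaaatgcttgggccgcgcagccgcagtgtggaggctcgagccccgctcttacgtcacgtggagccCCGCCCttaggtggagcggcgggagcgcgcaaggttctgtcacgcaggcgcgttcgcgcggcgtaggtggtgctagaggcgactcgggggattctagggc
CLK1: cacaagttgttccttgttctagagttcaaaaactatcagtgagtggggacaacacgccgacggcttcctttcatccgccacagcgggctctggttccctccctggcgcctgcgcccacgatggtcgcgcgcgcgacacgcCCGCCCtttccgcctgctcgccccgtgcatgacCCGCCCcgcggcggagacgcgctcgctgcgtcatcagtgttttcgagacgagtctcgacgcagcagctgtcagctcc
PRPF4B: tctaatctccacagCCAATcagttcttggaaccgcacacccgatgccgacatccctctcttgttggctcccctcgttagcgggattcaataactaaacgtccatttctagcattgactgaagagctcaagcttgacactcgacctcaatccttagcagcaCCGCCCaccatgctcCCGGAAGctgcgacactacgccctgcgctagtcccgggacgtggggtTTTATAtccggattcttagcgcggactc
CLK2: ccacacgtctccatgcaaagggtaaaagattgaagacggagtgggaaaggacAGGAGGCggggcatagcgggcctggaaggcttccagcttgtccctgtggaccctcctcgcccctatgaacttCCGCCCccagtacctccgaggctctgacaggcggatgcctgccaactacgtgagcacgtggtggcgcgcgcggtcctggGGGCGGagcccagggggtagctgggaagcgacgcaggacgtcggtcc

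The stretch of CLK1 holds 30 CpG dinucleotides, that of CLK4 29, that of DYRK1B 20, that of CLK2 19 and that of PRPF4B 17. GGGCGG letters occur in all 5. PRPF4B is the only one of the 5 with CCGGAAG and with TATAAA letters, and CLK2 the only one with AGGNGGC. Matches describe the letters only.

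CLK1, a nuclear kinase that phosphorylates SR proteins, carried 1 peak in the 4 lists. It was an untreated SON peak on chromosome 2 from 200864540 to 200864926, with a −log10 p of 16.0 in both replicates, rank 5380, a global IDR of 0.00684 and 75.9% of the list weaker. Its midpoint lay 75 bp upstream of the annotated start, and it covered all 300 bases of the promoter window, which runs from 250 bases before to 50 after the start. CLK1 was listed neither at 3 nor at 6 days nor for HMGB2, although its untreated peak was nearly as strong as that of CLK4, which was listed at 3 days.

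CLK2, another nuclear SR protein kinase, had its strongest SON peak outside the gene. In untreated cells it lay on chromosome 1 from 155262110 to 155262638, 230 bp beyond the 3′ end of CLK2, with a −log10 p of 31.0 (rank 1462, IDR 0.00234, 93.5% of the list weaker). The 3-day peak there had 36.1 (rank 580, IDR 0.000588, 94.8% weaker), and the 6-day peak had 14.8 (rank 605, IDR 0.0183, 89.1% weaker). The midpoints of these 3 peaks were 14, 16 and 6 bp from the annotated start of SCAMP3, a gene for a membrane carrier protein, and more than 11 kb from that of CLK2 (11.1, 11.2 and 11.2 kb). The SON signal that the window assigns to CLK2 in all 3 SON lists is therefore at the SCAMP3 start.

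At its own start CLK2 had an HMGB2 peak, on chromosome 1 from 155273411 to 155273675, with a −log10 p of 8.89, a fold enrichment of 4.28 over the caller's background and 42.4% of the HMGB2 list weaker. Its midpoint was 39 bp upstream of the start. Upstream of CLK2, at the start of the channel gene HCN3, an untreated SON peak with a −log10 p of 6.79 and the largest IDR of its list overlapped an HMGB2 peak with 9.47 and a fold enrichment of 4.70. No SON list had a peak at the CLK2 start.

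CLK3, a further member of the family, had no peak at its outermost start, and its SON peaks lay near an inner start and over CLK3-AS1, a gene on the opposite strand. The untreated peak on chromosome 15 from 74614545 to 74615026 had a −log10 p of 17.8 (rank 4494, IDR 0.00593, 79.9% weaker), and the 3-day peak at the same place had 10.1 (rank 4638, IDR 0.0544, 58.4% weaker). Their midpoints were 1051 and 1041 bp upstream of the inner start. A weaker untreated peak from 74615586 to 74615911, with 11.1 (IDR 0.0659), lay 88 bp upstream of that start and 44 bp from a start of CLK3-AS1, and was not listed at 3 days. The list therefore does not tell the start of CLK3 from that of its antisense gene.

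CLK4 carried a SON peak over its start in untreated cells and at 3 days. The untreated peak, on chromosome 5 from 178626912 to 178627419, had a −log10 p of 16.1 (rank 5346, IDR 0.00682, 76.0% weaker). The 3-day peak had 10.0 (rank 4699, IDR 0.0903, 57.8% weaker), with 10.0 in replicate 1 and 27.3 in replicate 2. Midpoints were 115 and 83 bp upstream of the start, and no other gene of the table was touched.

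SRPK1, the kinase that primes SR proteins for nuclear import, had the weakest untreated SON peak among those lying at a start. The untreated peak on chromosome 6 from 35920913 to 35921474 had a −log10 p of 8.27 and the largest IDR of its list, 0.431, with 36.0% of the list weaker. The 3-day peak had 8.48 (rank 6331, IDR 0.111, 43.2% weaker), with 8.48 and 17.6 in the replicates. Midpoints were 95 and 98 bp upstream of the start. The largest IDR was shared by 32.6% of the untreated list, and the SRPK1 peak had the same −log10 p in either replicate.

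SRPK2, its close relative, was the only kinase gene of the 9 whose SON peaks all lay deep within the gene and far from its annotated starts. The 2 untreated peaks, on chromosome 7 from 105198092 to 105198473 and from 105225316 to 105225559, had a −log10 p of 6.52 and 5.92. They were stronger than 15.9% and 8.98% of the list, had the largest IDR and lay 70.8 and 43.6 kb downstream of the nearest start. No other list had a peak at SRPK2, the longest gene of the 9 at 284.6 kb.

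DYRK1A, a kinase whose dosage matters in Down syndrome and whose targets include splicing factors, had the strongest untreated SON peak of the 9 genes. On chromosome 21 from 37366506 to 37366843 it had a −log10 p of 35.2 in both replicates (rank 1101, IDR 0.00186, 95.1% weaker). At 3 days the peak at this place had 14.1 in both replicates (rank 2510, IDR 0.0194, 77.5% weaker). Midpoints were 99 and 121 bp upstream of the third of the 6 annotated starts, whose promoter window both peaks covered in full. An untreated peak 43.2 kb downstream of the nearest start had 6.65 and the largest IDR, and neither a 6-day nor an HMGB2 peak was listed at DYRK1A.

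DYRK1B, a kinase that holds cells in quiescence, was the only gene of the 9 with SON peaks at its start in all 3 SON lists. The start peak was broad, 1003 bp in untreated cells, 1106 bp after 3 days and 1015 bp after 6 days, where the median widths of the lists were 412, 447 and 424 bp. Its −log10 p was 9.61 in untreated cells (chromosome 19 from 39833545 to 39834547, rank 11658, IDR 0.0146, 47.9% weaker). At 3 days it was 43.2 (rank 420, IDR 7.37e-05, 96.2% weaker), and at 6 days 8.48 (rank 2834, IDR 0.374, 49.2% weaker). The 3-day peak was the strongest at any of the 9 genes in any list, but its replicates gave 43.2 and 125.6, and those of the 6-day peak 20.0 and 8.48. The broad peaks also touched the 3′ end of FBL, the gene of the nucleolar methyltransferase fibrillarin, whose own start lay more than 12 kb away (12.3 kb in each list).

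A second place at DYRK1B lay 419 bp beyond its 3′ end and touched no gene of the table. There the untreated peak, on chromosome 19 from 39824436 to 39824931, had a −log10 p of 31.9 (rank 1377, IDR 0.00219, 93.8% weaker), the 3-day peak 11.5 (rank 3582, IDR 0.0286, 67.9% weaker) and the 6-day peak 7.79 (rank 3477, IDR 0.31, 37.6% weaker). The 2 places of DYRK1B thus stood in opposite order of strength within the untreated list and within the 3-day list: the downstream peak was the stronger in untreated cells, and the start peak at 3 days. At 6 days the replicates gave opposite orders, with 20.0 at the start and 7.79 downstream in replicate 1, and 8.48 and 11.1 in replicate 2.

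PRPF4B, the kinase bound to the tri-snRNP, was the only gene of the 9 with SON and HMGB2 peaks at its start. The untreated SON peak, on chromosome 6 from 4021116 to 4021517, had a −log10 p of 21.3 in both replicates (rank 3172, IDR 0.00441, 85.8% weaker). The 3-day SON peak had 8.24 (rank 6670, IDR 0.126, 40.2% weaker), with 8.24 and 18.5 in the replicates. The HMGB2 peak from 4021026 to 4021371 had a −log10 p of 8.89 and a fold of 4.28, the same values to every deposited digit as the peak at the CLK2 start. Midpoints were 16 bp downstream, 37 bp upstream and 102 bp upstream of the start, and all 3 touched the neighbouring non-coding gene LOC124901245.

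In order of the strongest untreated SON peak, the genes ran DYRK1A, DYRK1B, CLK2, PRPF4B, CLK3, CLK4, CLK1, SRPK1 and SRPK2. The peaks that place DYRK1B and CLK2 lay beyond the 3′ ends of these genes, that of CLK2 at the SCAMP3 start. At its own start DYRK1B had 9.61 in untreated cells. The strongest DYRK1B peak at 3 and at 6 days was the one at its start, so its values belong to different places in different lists. The median over the 9 was a −log10 p of 17.8, and over the 11401 genes with an untreated SON peak it was 14.6. At 3 days the 7 listed genes had a median of 10.1, where 8187 genes had 11.2, and at 6 days CLK2 and DYRK1B had 14.8 and 8.48, where 4301 genes had a median of 9.25. The HMGB2 values of CLK2 and PRPF4B, 9.47 and 8.89, lay under the median of 10.4 over 4650 genes. Neighbours in the order, such as CLK4 and CLK1 at 16.1 and 16.0, cannot be ordered, since equal replicate values give no spread to set them against.

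**Figure D3:**
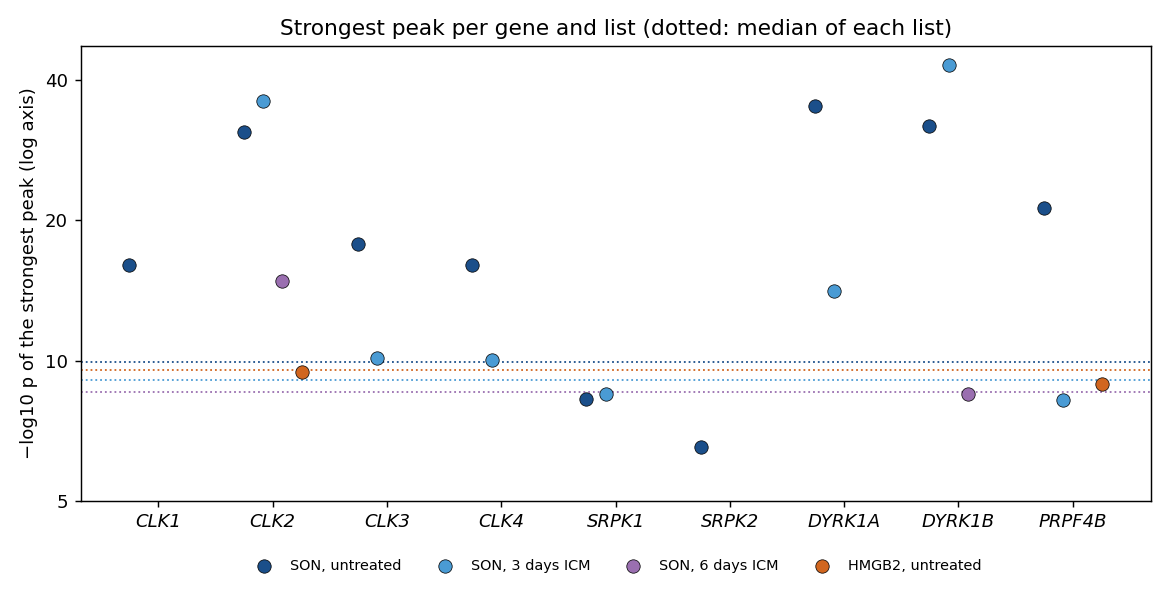
−log10 p of the strongest peak assigned to each of the 9 genes (vertical log axis), 1 point per list in which the gene has a peak, with dotted lines at the median of each whole list. DYRK1A, DYRK1B and CLK2 lie at 31.0 or more in untreated cells, SRPK1 and SRPK2 lie under the median of the untreated list, 9.91, and values of different lists rest on different thresholds and unknown depths.

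Agreement between the 2 replicate values differed between the lists. Of the 14 untreated peaks at the kinase genes, 12 had equal −log10 p values in replicates 1 and 2 (85.7%), against 55.9% of the whole list. At 3 days 1 of 8 did (12.5%, against 29.01%), and at 6 days 0 of 3 (against 9.49%). In the other 7 peaks at 3 days replicate 2 was the higher each time, by up to 2.91 times at the DYRK1B start, and in the whole 3-day list replicate 2 was the higher in 79.1% of 7921 unequal lines. How the replicates were made is not stated, so the equal values are no measure of the spread between cultures.

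**Figure D4:**
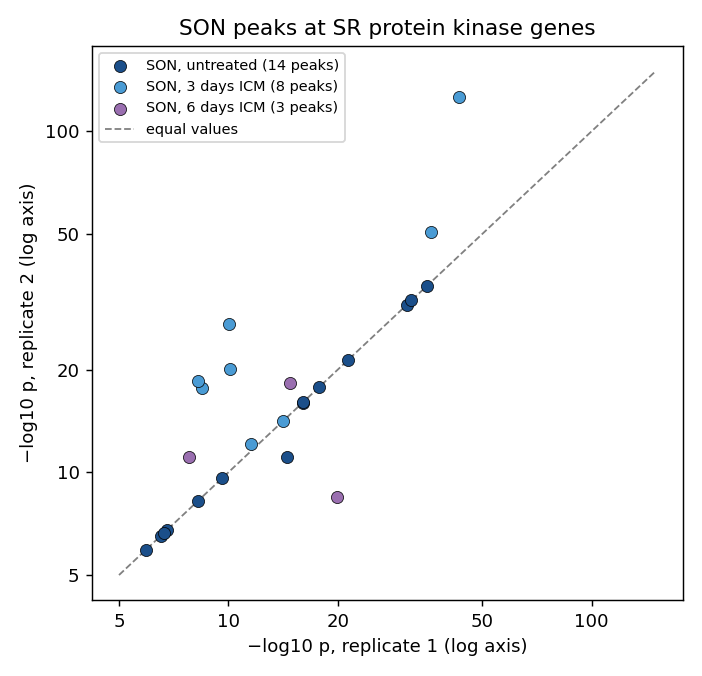
−log10 p in replicate 1 (horizontal) and replicate 2 (vertical), log axes, for the SON peaks assigned to the 9 genes: 14 untreated, 8 at 3 days and 3 at 6 days, with a dashed line of equal values. Untreated points lie on the line except the weaker CLK3 peak (14.5 and 11.1) and, slightly, the peak beyond the DYRK1B 3′ end, while 7 of the 8 points at 3 days lie above it.

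A limit on the IDR changed the counts. With a global IDR of at most 0.05, an untreated SON peak was left at 7 of 9 genes, all but SRPK1 and SRPK2, against 45% of all genes. At 3 days CLK2, DYRK1A and DYRK1B were left, 3 of 9 against 24%, and at 6 days CLK2 alone, against 5.02%. In each list the CLK2 peak that was left was the one at the SCAMP3 start. With this limit the 3-day count is nearer to its background than without it. The IDR rests on the 2 replicates, whose share of equal values differed between the lists, so the limit need not mean the same in each.

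Where the lists coincided, the later peaks sat on untreated ones. All 8 peaks at 3 days and all 3 at 6 days overlapped an untreated SON peak by at least 1 bp, against 91.6% and 88.9% of these whole lists. In the reverse direction 8 of 14 untreated peaks at the kinase genes were met at 3 days (57.1%, against 45.4% of the untreated list) and 3 of 14 at 6 days (21.4%, against 21.9%). HMGB2 peaks met 2 of the 14 (14.3%, against 16.5%), at PRPF4B and at the HCN3 start near CLK2. Of the 3 peaks at 6 days 0 met an HMGB2 peak, against 25.4% of the 6-day list, a count too small to set apart from that share.

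The promoter windows of RefSeq were used to ask what the starts with a peak had in common. The table held 19 windows for the 9 genes, and the outermost start of SRPK2 is not among them. Of the 12 windows with 20 or more CpG dinucleotides, 8 were met by an untreated SON peak, and of the 7 with fewer, none was. Windows of a gene are not independent: the 7 came from 3 genes, and the 2 windows of CLK1 were met by 1 peak. Except for an SRPK2 window with 10 CpG, these 7 held 5 CpG or fewer. Over all 22132 protein-coding windows an untreated SON peak met 4.39% of those with 0 to 9 CpG and 35.0% of those with 10 to 19. It met 56.8% of those with 20 to 29 and 45.1% of those with 30 or more. Promoters at large thus share the low share at 0 to 9 CpG, but show no sharp split at 20. A high CpG count was not enough: a window of SRPK2 with 43 CpG and a GC content of 83.7%, and windows of DYRK1A with 28 and 50 CpG, were met by none of the 4 lists.

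**Figure D5:**
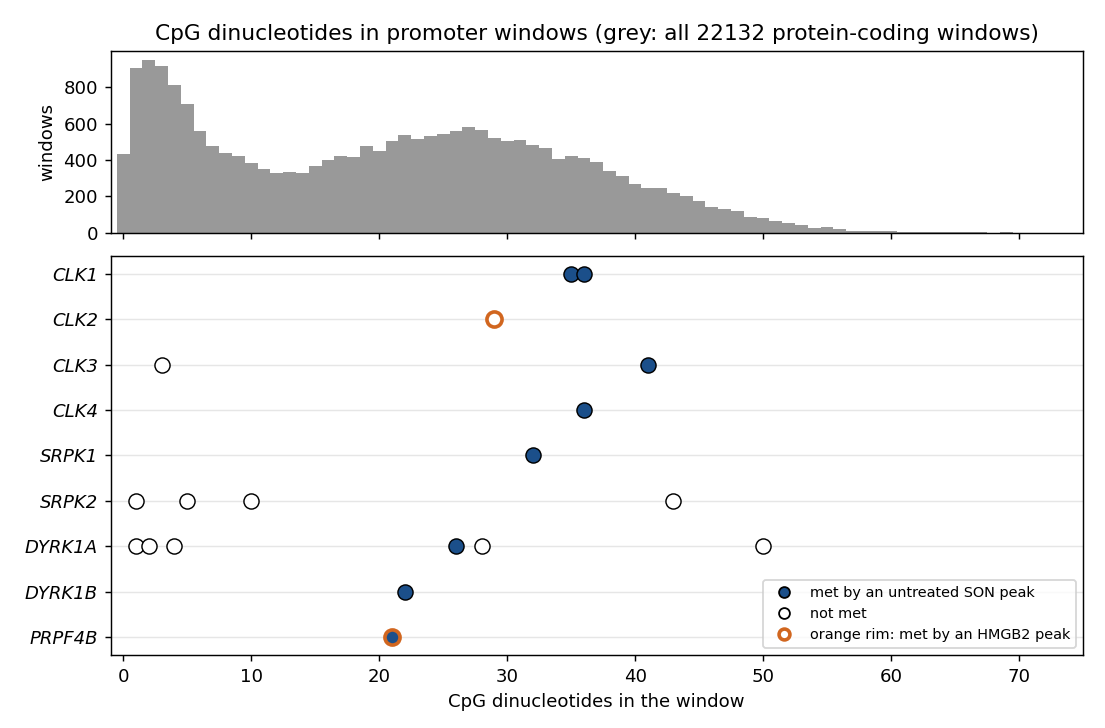
Number of CpG dinucleotides in each 300-base promoter window, for all 22132 protein-coding windows (top, histogram) and for the 19 windows of the 9 genes (bottom). Filled points are met by an untreated SON peak and orange rims mark an HMGB2 peak. The 8 filled points lie between 21 and 41 CpG, and none of the 7 windows under 20 CpG is filled.

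Letters of known motifs were counted in the same 300-base windows on both strands. GGGCGG occurred in at least 1 window of each of the 9 genes, in 12 of their 19 windows and in 56.3% of all windows. CCAAT occurred at CLK3, DYRK1A, DYRK1B and PRPF4B (5 of the 19 windows, against 34.6% of all windows). CCGGAAG occurred at CLK3 and PRPF4B (2 of 19, against 12.8%), and TATAAA at DYRK1A, SRPK2 and PRPF4B (4 of 19, against 9.46%). AGGNGGC, part of the CTCF motif, occurred at CLK2, CLK3, SRPK1, SRPK2 and DYRK1A (7 of 19, against 41.2%). AAGATGG, for YY1, and TGACGTCA, the cAMP response element, occurred in no window of the 9 genes and in 6.05% and 2.26% of all windows. Genes with several windows had more chances of a match, and no factor's binding follows from letters.

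The other genes of the pathway were read by the same rule. Of all protein-coding genes, 57.1% had an untreated SON peak, 41% a 3-day peak, 21.5% a 6-day peak and 23.3% an HMGB2 peak. Of 24 substrates, SR proteins and other phosphorylated splicing factors, 20 had an untreated SON peak, 21 a 3-day peak, 10 a 6-day peak and 12 an HMGB2 peak (83.3%, 87.5%, 41.7% and 50%). Within 1 kb of an annotated start the counts were 18, 19, 8 and 10 of the 24. Of all genes with an annotated start, 43.8%, 31%, 12.9% and 16.7% had such a peak. Whether single peaks of the pathway genes lie at a neighbour was not checked. SRSF2, SRSF5, SRSF7, SRSF10, SRRM1 and PNN had a peak in all 4 lists, and SRSF8, SRSF12 and ACIN1 in none. The strongest untreated peak was that of SRSF10, with a −log10 p of 118.9, followed at 3 days by 108.1 and at 6 days by 25.2, and the weakest was that of LUC7L3, with 7.86. Among the kinase genes CLK2 had a peak in all 4 lists by the same rule, with HMGB2 but not SON at its own start, and the difference between kinases and substrates was not tested.

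Of 7 genes for phosphatases that remove these phosphates and for import, all had an untreated SON peak, 4 a 3-day peak, 3 a 6-day peak and 2 an HMGB2 peak. These shares were 100%, 57.1%, 42.9% and 28.6%, where all genes stood at 57.1%, 41%, 21.5% and 23.3%. Within 1 kb of an annotated start the counts were 5, 3, 2 and 1 of the 7. PPP1CB, a catalytic subunit of protein phosphatase 1, was in all 4 lists. PPP2CA, a catalytic subunit of protein phosphatase 2A, had the strongest untreated peak with 78.9, and PPP1CC the weakest with 8.71. Of 12 related kinases, 8, 5, 5 and 3 had a peak in the 4 lists (66.7%, 41.7%, 41.7% and 25%), against the same shares of all genes. Within 1 kb of an annotated start the counts were 5, 4, 2 and 2 of the 12. CDK13, which phosphorylates RNA polymerase II, was in all 4, and SRPK3, DYRK4 and HIPK4 in none. The strongest untreated peak was that of CDK12, with 53.9, and the weakest that of DYRK3, with 6.28.

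The genes most like DYRK1A were found by the sum, over the 4 lists, of the absolute differences in the share of the list weaker than the strongest peak, with 0 where no peak was listed. DIDO1 and GID8 had the same values as each other, 38.6 in untreated cells and 14.1 at 3 days in −log10 p, and a sum of 1.02 percentage points. The rule assigns a peak to every gene whose window it touches, so DIDO1 and GID8 may stand for 1 place, which was not checked. ATP9B followed with 30.4 and 14.2 and a sum of 2.27. Like DYRK1A, none of the 3 had a 6-day or an HMGB2 peak.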

How the data were processed

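IMR90 peak lists of SON (untreated, 3 and 6 days of ICM) and of HMGB2 (untreated) were used, 1 per group. An input library and a library labelled DSG, both from the HMGB2 experiment, were not used here. The submitters' processing notes name hg38, bcl2fastq 2.17, Bowtie2, MACS2 and deepTools; their settings and the control are not given in the sources used here. The SON lists have the layout of the IDR tool for 2 replicates. The authors deposited −log10 p values, per replicate and as the lower of both, the −log10 of the IDR and a scaled score. For HMGB2 the authors deposited fold enrichment, a ratio to the caller's background, with −log10 p and −log10 q values and a score, and the peak names state a q of 0.03. Depth is unknown.

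Positions are 1-based. Gene spans, starts and 300-base promoter windows came from RefSeq (GRCh38.p14). A peak was assigned to every gene whose span plus 5 kb it touched, and ranks were taken over all lines of its list. The assignment code for the members was run on simulated peaks placed in gene windows. This checks only that the code follows the rule, and it did not cover the code for the shares of all genes. No test was made between lists. The members, gene lists and motifs were chosen with earlier results of these data known. All 9 members were named; of the other pathway genes those with a peak in all 4 lists or in none, and the strongest and weakest, were named. Alternatives covered the window, the overlap, the threshold, list length, neighbouring genes and the measure of strength. The tools were pandas 2.3.3, matplotlib 3.10.9, scipy 1.17.1 and numpy 2.4.6 under Python 3.11.15.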

Additional observations from a re-analysis of the deposited data

How the results depend on the processing

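Of 86 counts under the alternatives, 66 stayed within 1.5 times the reported count. Windows of 1 and 10 kb, the peak midpoint or the whole peak in the window, a q limit for HMGB2 and both other rules of sharing moved none by more. With no flank, 1 member and 1 peak were left at 6 days. With the stronger 50% of each list, 8 untreated peaks, 1 peak and 1 member at 6 days, and 0 HMGB2 peaks and members were left. With a global IDR of at most 0.05 these were 8 untreated peaks, 4 peaks and 3 members at 3 days and 1 of each at 6 days. With at most 0.01 they were 7 untreated peaks, 2 peaks and 2 members at 3 days and 0 of each at 6 days. With 5583 lines per list 7 untreated peaks were left. Within 1 kb of a start, or with no other protein-coding gene touched, 1 member was left at 6 days, DYRK1B. The stricter limits leave fewer lines by construction.

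With the IDR or the fold as strength, 17 of 20 values moved by under 10 percentage points. The share of the list weaker went from 36.0% to 0% for SRPK1 and from 15.9% to 0% for SRPK2 in untreated cells, and from 57.8% to 42.3% for CLK4 at 3 days. No paired analysis was possible because each group has 1 list, and for the same reason no replicate could be left out.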
